A study of Mus musculus with 59 samples.

Results

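Metallothioneins and genes that respond to glucocorticoids were followed in mouse liver carrying altered E2F alleles. The 8 genes are Mt1, Mt2, Slc30a1, Nr3c1, Fkbp5, Tsc22d3, Sgk1 and Arrdc2, out of 18193 genes measured. They were chosen by symbol, with earlier results of these arrays known, and all 8 were present on the array, with 20 probe sets annotated to them alone. A probe set is a group of short probes read as 1 value. For each gene the probe set with the highest mean over the arrays of a normalization was taken as the main probe set, which was thus selected on its measured mean level.

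Metallothioneins are small cysteine-rich proteins that bind zinc and copper. In liver their genes are switched on by metals through the factor MTF1, which binds metal response elements, and also by glucocorticoids and by inflammatory signals. Glucocorticoids enter the cell and bind the glucocorticoid receptor, which is held by heat shock chaperones until then and afterwards binds DNA as a pair of receptors. Among its direct targets are genes that damp the response, such as Fkbp5, a cochaperone that lowers the receptor's affinity for hormone.

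The samples were livers of 4-week-old mice of a mixed background of FVB/NT, 129S1/Svlmj and C57BL/6NT, measured as total RNA on Affymetrix arrays. There were 12 wild-type arrays (wt), 10 of an E2f3a knockout (3aKO), 10 of an E2f1 knock-in (1KI) and 5 of an E2f3b knock-in (3bKI), and the comparisons ask how each altered allele moves gene expression in young liver. Whether the knock-in mice also lack E2f3a, where the knock-ins sit, whether each array is a separate mouse, the sex of the mice and the time of day of collection are not stated in the labels. The p-values therefore cover only the spread among these arrays, which could be technical. The deposited log2 values come in 2 normalizations, the first with wt, 3aKO and 1KI and the second with the same 22 wt and 3aKO arrays and 3bKI. No normalization holds both 1KI and 3bKI, so the knock-ins are never tested against each other, and comparisons that share wt or 3aKO arrays are given side by side.

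The arrays differed in ways that run alongside the genotypes. The 18 spiked-in hybridization controls stood at a higher level on 10 of 10 1KI arrays, 5 of 5 3bKI arrays, 2 of 12 wt arrays (replicates 1 and 2) and 0 of 10 3aKO arrays. The poly-A controls had a mean log2 value of 13.8 in 3bKI and 9.04 in wt, with no overlap between their arrays. RNA integrity, read as the 3' minus 5' difference of Actb and Gapdh, was 0.31 ± 0.04 (SD, n = 5) in 3bKI, 0.56 ± 0.05 (n = 12) in wt and 1.75 on 1KI replicate 6. The altered genes gave a weak check of the labels, since in 3aKO against wt the main probe set of E2f3 changed by a log2 value of -0.25 ± 0.07 (SE), adjusted p = 0.13, and that of E2f1 by -0.25 ± 0.11 (adjusted p = 0.086) in 1KI against wt, and neither probe set need lie in the altered part. Against 3aKO the main set of E2f1 fell by 0.29 in 1KI (adjusted p = 0.049), although these arrays are labelled as an E2f1 knock-in, and that of E2f3 rose by 0.22 in 1KI (adjusted p = 0.022). In 3bKI against wt that of E2f3 fell by 0.24 (adjusted p = 0.049). The genotypes are therefore used as labelled, unchecked by these probe sets. The mean of 8 hepatocyte markers lay between 14.3 and 14.4 on every array, and all 8 were above the median signal. Of the 3 measured markers of fat and pancreas, 0 were above it.

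The promoters of Mt1, Mt2, Slc30a1 and Sgk1 are shown because promoters are part of the DNA through which metals or glucocorticoids can act on such genes. DNA farther from the annotated starts was not searched. The sequences are from RefSeq on GRCm38.p6, the C57BL/6J-based reference, and run 5' to 3' from 250 bases before to 50 bases after an annotated start. All 4 lie on the plus strand. Capitals mark the core of the metal response element, TGCACNC or TGCGCNC on either strand, and in Sgk1 the palindromic glucocorticoid response element, AGAACA and TGTTCT with any 3 bases between them.
Mt1, chr8:94178839-94179138: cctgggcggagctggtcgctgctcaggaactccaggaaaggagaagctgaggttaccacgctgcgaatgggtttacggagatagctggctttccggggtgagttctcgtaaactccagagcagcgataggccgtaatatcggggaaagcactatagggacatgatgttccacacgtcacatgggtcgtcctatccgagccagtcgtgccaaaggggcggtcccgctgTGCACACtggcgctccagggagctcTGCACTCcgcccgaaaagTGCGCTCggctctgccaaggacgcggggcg
Mt2, chr8:94172368-94172667: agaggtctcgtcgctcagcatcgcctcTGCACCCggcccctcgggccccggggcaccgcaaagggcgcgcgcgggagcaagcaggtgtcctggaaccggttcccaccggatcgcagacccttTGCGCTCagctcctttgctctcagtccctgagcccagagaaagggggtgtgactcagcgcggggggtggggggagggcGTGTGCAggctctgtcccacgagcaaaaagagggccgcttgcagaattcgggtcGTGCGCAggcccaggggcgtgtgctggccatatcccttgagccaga
Slc30a1, chr1:191906531-191906830: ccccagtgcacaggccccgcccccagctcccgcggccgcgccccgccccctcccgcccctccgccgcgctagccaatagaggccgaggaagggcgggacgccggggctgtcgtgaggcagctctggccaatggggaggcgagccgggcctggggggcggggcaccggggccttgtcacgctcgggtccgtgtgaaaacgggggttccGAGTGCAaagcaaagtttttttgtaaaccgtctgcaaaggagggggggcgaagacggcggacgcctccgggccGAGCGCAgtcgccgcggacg
Sgk1, chr10:21993640-21993939: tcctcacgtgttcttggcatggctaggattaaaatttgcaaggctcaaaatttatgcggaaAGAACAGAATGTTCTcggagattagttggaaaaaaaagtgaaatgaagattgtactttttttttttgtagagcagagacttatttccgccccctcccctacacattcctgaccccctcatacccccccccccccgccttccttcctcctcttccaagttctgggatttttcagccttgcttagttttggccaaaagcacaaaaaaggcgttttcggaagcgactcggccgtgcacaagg
The Mt2 window holds 4 metal cores, the Mt1 window 3 and the Slc30a1 window 2, with no overlap among them, and those of Mt1 crowd around the annotated start, at window positions 228, 253 and 271. Of 32851 promoter windows of the same length, 25.7% hold at least 1 such core, 1.97% hold 3 or more and 0.517% hold 4 or more. The metal core was searched on both strands, and the palindrome reads the same on both. The palindrome is in 3 of the 32851 windows (0.00913%), and 1 of them is this window, which is 1 of 6 annotated starts of Sgk1. Another of the Sgk1 windows, not shown, holds 1 metal core. Of the 8 genes, 7 had a window in the table, and the windows of Fkbp5, Tsc22d3 and Arrdc2 hold neither motif. A match of letters is a description of these windows and says nothing about binding.

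Against wt, 0 of the 8 genes passed limma's adjusted p of 0.05 in 3aKO, where 0.176% of all genes did. At an unadjusted p under 0.05 there were 2 of 8 (Mt2 and Nr3c1). The share of all genes at that unadjusted p is not given, so this count cannot be set against a background. In 1KI against wt 4 of 8 passed, Fkbp5 and Arrdc2 higher and Slc30a1 and Nr3c1 lower, against 27.6% of all genes (10.2% higher and 17.5% lower). In 3bKI against wt 7 of 8 passed, 6 of them lower (Mt1, Mt2, Slc30a1, Nr3c1, Fkbp5 and Tsc22d3) and Arrdc2 higher, against 29.2% of all genes (13.4% higher and 15.9% lower). The median log2 change of the 8 was -0.65 in 3bKI against wt, beside 0.00 for all genes, and 0.10 in 1KI against wt, beside -0.05. Against 3aKO 5 of 8 passed in 1KI, where 31% of all genes did (11.9% higher and 19% lower), and 4 of 8 in 3bKI, where 34.2% did (16.5% higher and 17.7% lower). With a block on the hybridization control level 2 of 8 passed in 1KI against wt (Slc30a1 and Arrdc2, beside 4.3% of all genes) and 2 of 8 in 3bKI against wt (Slc30a1 and Tsc22d3, beside 8.7%). With RNA integrity as a covariate the same pair passed in 3bKI against wt, beside 3.33% of all genes. The genes were listed with results of these arrays known, so these counts describe them and support nothing further.

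**Figure D1:**
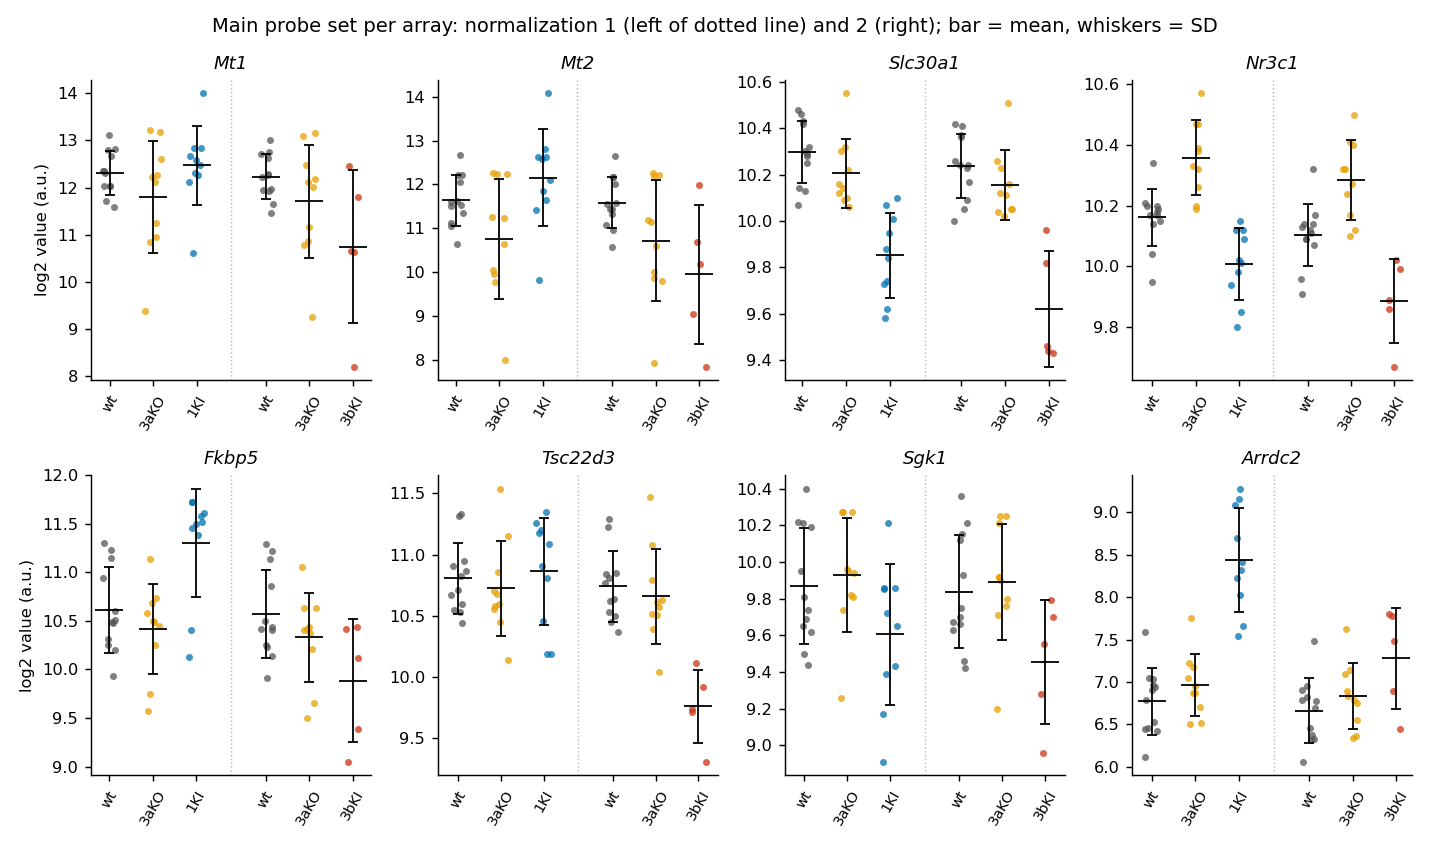
Log2 value of the main probe set of each gene on every array (y axis, arbitrary units, a scale of its own for each gene) by genotype (x axis), with normalization 1 left of the dotted line and normalization 2 right of it. Points are arrays, the wide bar is the mean and whiskers are the SD. In 3bKI, Slc30a1 and Tsc22d3 lie below every wt array, as do 4.47% of all genes. In 1KI 9 of 10 Arrdc2 values lie above every wt array.

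Mt1 and Mt2 had the most uneven levels of the 8 genes within a genotype. Mt1, the main inducible metallothionein of liver together with Mt2, ranged from 11.58 to 13.11 in wt (median 12.33, n = 12), from 9.37 to 13.23 in 3aKO (median 12.17, n = 10) and from 10.62 to 14.00 in 1KI (median 12.53, n = 10). The 3 groups overlapped. Mt1 had a log2 change of -0.52 ± 0.34 (SE) in 3aKO against wt (limma, adjusted p = 0.58) and of 0.15 ± 0.34 in 1KI against wt (adjusted p = 0.78), and neither passed. On the 3bKI arrays Mt1 read 11.79, 12.46, 10.63, 10.65 and 8.20, against 11.47 to 13.02 in wt. Of these, 3 values lie below all wt arrays and the others among them.

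Mt1 fell by 1.49 ± 0.51 on the log2 scale in 3bKI against wt (limma, adjusted p = 0.026, 4 of 5 arrays below the wt mean), a level 2.81-fold lower. That call was lost without 3bKI replicate 5, which gave -0.85 (adjusted p = 0.19), and also without replicate 3 (-1.46) or replicate 4 (-1.47). Against 3aKO the change was -0.96 ± 0.52 (adjusted p = 0.16), and it passed without 3aKO replicate 9 (-1.24, adjusted p = 0.041) or 3bKI replicate 2 (-1.39, adjusted p = 0.046). In 1KI against 3aKO the change was 0.67 ± 0.36 (adjusted p = 0.16), and it passed without 1KI replicate 1 (0.88, adjusted p = 0.048).

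Mt2 followed the same arrays. It ranged from 10.65 to 12.68 in wt (median 11.58), from 7.98 to 12.26 in 3aKO (median 10.94) and from 9.82 to 14.08 in 1KI (median 12.34), with overlap among all 3. The 3aKO group held the widest run of values, and the 1KI group the highest. Mt2 rose by 1.40 ± 0.44 in 1KI against 3aKO (adjusted p = 0.013, 9 of 10 arrays above the 3aKO mean), 2.63-fold, a call lost with a block on the hybridization control level (1.82 ± 0.88, adjusted p = 0.3). Its change against wt was 0.52 ± 0.42 (adjusted p = 0.37). In 3aKO against wt its change was -0.88 ± 0.42 (adjusted p = 0.4). On the 3bKI arrays Mt2 read 10.69, 11.98, 9.03, 10.18 and 7.84, against 10.58 to 12.66 in wt, so that again 3 of 5 arrays lay below all wt arrays. It fell by 1.64 ± 0.55 there (adjusted p = 0.025), and the call was lost without replicate 5 (-1.11) or replicate 3 (-1.41). The calls of both genes in 3bKI against wt were also lost with the level as a block, at -1.21 for Mt1 (adjusted p = 0.41) and -1.26 for Mt2 (adjusted p = 0.43), and with RNA integrity as a covariate, at -1.96 (adjusted p = 0.33) and -2.61 (adjusted p = 0.2).

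With a pooled SD within genotypes of 1.05 in the first normalization, Mt2 had the 32nd largest spread of 18193 genes, and Mt1, at 0.86, the 54th, whereas the median gene had 0.15. The spread of both was shared. Across arrays of a genotype Mt1 and Mt2 correlated with r = 0.82 in wt (n = 12, permutation p = 0.0013 adjusted over 3 genotypes, rho = 0.75), 0.91 in 3aKO (n = 10, adjusted permutation p = 0.00054, rho = 0.86) and 0.96 in 1KI (n = 10, adjusted permutation p = 0.00054, rho = 0.79). Spearman's rho had adjusted permutation p values of 0.0083, 0.0076 and 0.0083. Without the 2 arrays farthest from the Mt1 median r was 0.82, 0.76 and 0.75. The arrays that stood lowest for both genes were 3aKO replicate 9, 1KI replicate 1 and 3bKI replicate 5, and 1KI replicate 3 stood highest. A cross-hybridization of probes between these similar genes was not tested.

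**Figure D2:**
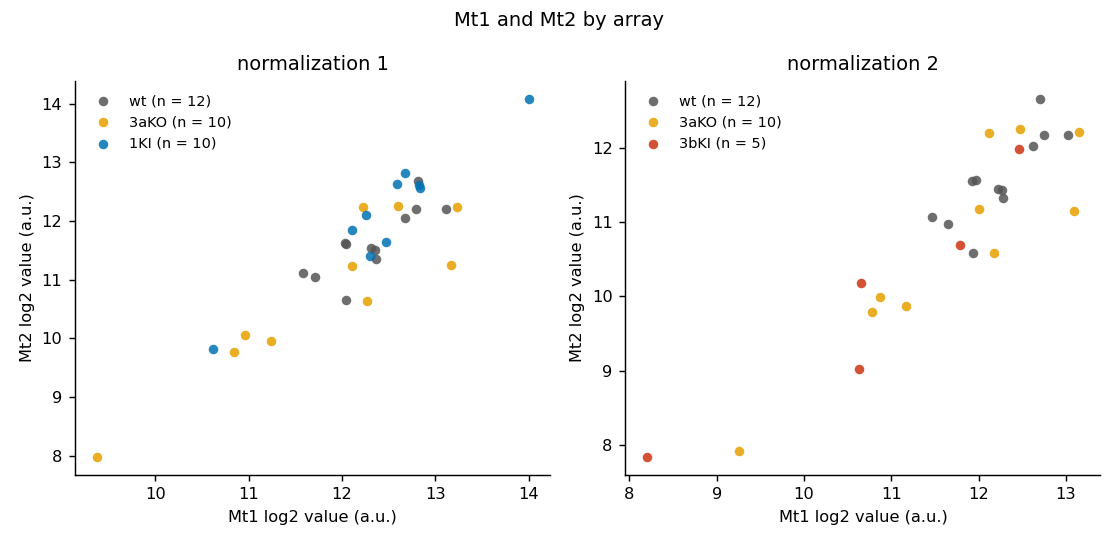
Log2 value of Mt2 (y axis) against Mt1 (x axis) on each array, in normalization 1 (left) and normalization 2 (right), coloured by genotype. The points run along a diagonal in each genotype, from 3bKI replicate 5 at 8.20 and 7.84 to 1KI replicate 3 at 14.00 and 14.08.

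The second Mt1 probe set, a dimmer set, gave another result. Its values were 5.77 to 6.92 in wt (median 6.20), 5.65 to 6.54 in 3aKO (median 6.08) and 6.37 to 8.80 in 1KI (median 7.75). The 1KI replicates 1, 7, 8 and 9 read 6.80, 6.46, 6.37 and 6.44, within the wt range, and the others 7.40 to 8.80. In 1KI the dimmer set rose by 1.32 ± 0.24 against wt (adjusted p = 9.3e-05) and by 1.49 ± 0.25 against 3aKO (adjusted p = 2.9e-05). In 3bKI, where the bright set fell, its change against wt was -0.01 ± 0.17 (adjusted p = 0.98). With a block on the hybridization control level its change in 1KI against wt was 1.52 ± 0.45 (adjusted p = 0.026). The 2 probe sets of Mt1 thus disagree in both knock-ins, and the mean of the pair had a change of 0.73 ± 0.25 in 1KI against wt (adjusted p = 0.024) and -0.75 ± 0.30 in 3bKI against wt (adjusted p = 0.059).

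Slc30a1 encodes the zinc exporter ZnT1 of the plasma membrane, which like the metallothioneins is induced by zinc through MTF1. Its levels were tight. They ran from 10.07 to 10.48 in wt (median 10.30), from 10.06 to 10.55 in 3aKO (median 10.15) and from 9.58 to 10.10 in 1KI (median 9.86), so the 1KI arrays sat below nearly all others. It fell by 0.45 ± 0.07 in 1KI against wt (adjusted p = 5.3e-06, 10 of 10 arrays below the wt mean) and by 0.35 ± 0.07 against 3aKO (adjusted p = 0.00016). The 3bKI arrays read 9.44, 9.96, 9.43, 9.82 and 9.46, all below the lowest wt array at 10.00 and the lowest 3aKO array at 10.02. Groups that do not overlap occurred for 7.18% of all genes in 3bKI against wt (4.47% with 3bKI lower) and 12.2% against 3aKO (6.74% with 3bKI lower). Slc30a1 fell by 0.62 ± 0.09 against wt (adjusted p = 3.1e-06), a level 1.53-fold lower, and by 0.53 ± 0.09 against 3aKO (adjusted p = 2.5e-05).

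The wt arrays at the higher hybridization control level, replicates 1 and 2, read 10.42 and 10.30 for Slc30a1, above all 10 1KI arrays. With that level as a block its change was -0.51 ± 0.12 in 1KI against wt (adjusted p = 0.013) and -0.68 ± 0.14 in 3bKI against wt (adjusted p = 0.0027). Against 3aKO it was -0.61 ± 0.16 in 3bKI (adjusted p = 0.017) and -0.43 ± 0.14 in 1KI, where the call was lost (adjusted p = 0.094). With RNA integrity as a covariate the call in 3bKI against 3aKO was lost (-0.53 ± 0.21, adjusted p = 0.24). The second Slc30a1 probe set fell by 0.45 ± 0.07 in 1KI against wt (adjusted p = 7e-06) but had -0.20 ± 0.09 in 3bKI against wt (adjusted p = 0.11) and 0.02 ± 0.09 against 3aKO (adjusted p = 0.89). The fall in 3bKI therefore rests on the brighter probe set.

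Nr3c1 encodes the glucocorticoid receptor itself. In the first normalization it ran from 9.95 to 10.34 in wt (median 10.18), from 10.19 to 10.57 in 3aKO (median 10.36) and from 9.80 to 10.15 in 1KI (median 10.02). All 3aKO arrays lay above all 1KI arrays, whereas 4.04% of all genes had groups that do not overlap (1.84% with 1KI lower), with wt between and overlapping both. Nr3c1 fell by 0.35 ± 0.05 in 1KI against 3aKO (adjusted p = 4.4e-06) and by 0.15 ± 0.05 against wt (adjusted p = 0.021), both small changes on arrays with a within-genotype SD of 0.11. In 3aKO against wt its change was 0.20 ± 0.05, with 10 of 10 arrays above the wt mean and adjusted p = 0.096. With array weights that change passed (adjusted p = 0.032). The other Nr3c1 probe sets had 0.066, -0.093, 0.069, 0.098 and 0.064 there, and none passed, beside 0.286% of all probe sets. In 1KI against 3aKO they had -0.207, -0.326, -0.523, -0.505 and -0.231. All but the third probe set (adjusted p = 0.15) passed there, beside 31.3% of all probe sets.

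On the 3bKI arrays Nr3c1 read 9.99, 9.89, 9.67, 9.86 and 10.02, below all 3aKO arrays (10.10 to 10.50). These values lay at or below the low end of wt (9.91 to 10.32). In 3bKI against 3aKO 12.2% of all genes had groups that do not overlap (6.74% with 3bKI lower). Nr3c1 fell by 0.40 ± 0.07 against 3aKO (adjusted p = 3.2e-05) and by 0.22 ± 0.07 against wt (adjusted p = 0.012). The latter did not pass without replicate 3 (-0.16, adjusted p = 0.074). With a block on the hybridization control level its changes against wt were -0.10 ± 0.09 in 1KI (adjusted p = 0.6) and -0.15 ± 0.10 in 3bKI (adjusted p = 0.43), and against 3aKO -0.28 (adjusted p = 0.15) and -0.32 (adjusted p = 0.11). The calls in 3bKI were lost too with RNA integrity as a covariate (-0.07 against wt and -0.21 against 3aKO). With equal array medians the call in 1KI against wt was lost (-0.11, adjusted p = 0.11). Of its 6 probe sets, all had negative changes in 1KI against wt and 4 passed, from -0.14 to -0.45, beside 29.2% of all probe sets. In 3bKI against wt 3 passed, beside 27.7% of all probe sets, and their changes reached -0.90 ± 0.13 on the fifth (adjusted p = 7.5e-06), while the sixth had 0.02 ± 0.07.

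**Figure D3:**
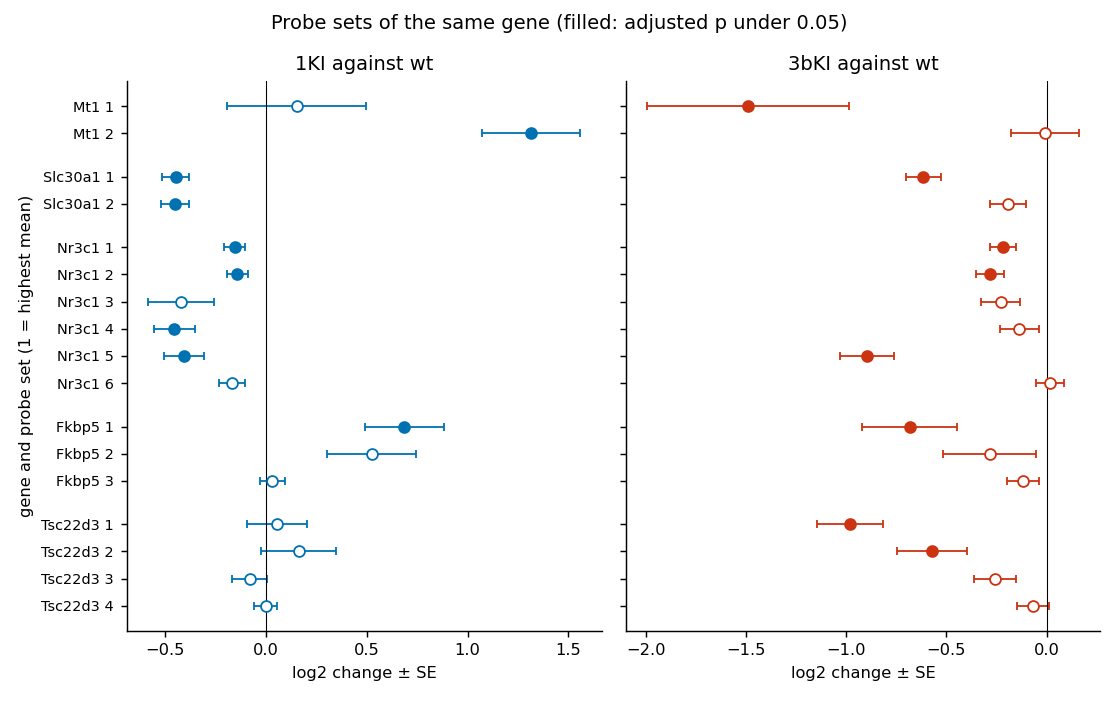
Log2 change (x axis) with its SE for every probe set of the 5 genes that have several (y axis, 1 being the main probe set) in 1KI against wt (left) and 3bKI against wt (right). Filled points passed an adjusted p of 0.05. The probe sets of Mt1 differ in both panels, and the main probe sets of Slc30a1, Fkbp5 and Tsc22d3 show the largest falls of their genes in 3bKI.

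Fkbp5, the cochaperone that dampens the receptor, was higher in 1KI and lower in 3bKI than in wt. Its values ran from 9.93 to 11.30 in wt (median 10.50), from 9.57 to 11.14 in 3aKO (median 10.50) and from 10.13 to 11.72 in 1KI (median 11.51). Of the 1KI arrays 8 lay above every wt array, and replicates 1 and 6, at 10.13 and 10.41, lay within the wt range. It rose by 0.69 ± 0.20 in 1KI against wt (adjusted p = 0.0082), 1.61-fold, and by 0.89 ± 0.20 against 3aKO (adjusted p = 0.001). The 3bKI arrays read 10.12, 10.44, 10.42, 9.05 and 9.39, so that 2 of 5 lay below the wt range of 9.91 to 11.29. Fkbp5 fell by 0.68 ± 0.24 in 3bKI against wt (adjusted p = 0.031), and the call was lost without replicate 4 (-0.48) or replicate 5 (-0.56). Against 3aKO its change was -0.45 ± 0.25 (adjusted p = 0.17).

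The wt arrays at the higher control level read 10.20 and 10.60 for Fkbp5, below 8 of the 10 1KI arrays. With the level as a block the change in 1KI against wt was 0.90 ± 0.36 (adjusted p = 0.15), in 1KI against 3aKO 1.15 ± 0.41 (adjusted p = 0.13) and in 3bKI against wt -0.44 ± 0.38 (adjusted p = 0.55). The latter call was lost as well with RNA integrity as a covariate (-0.99, adjusted p = 0.28). A second, dimmer probe set had 0.53 ± 0.22 in 1KI against wt (adjusted p = 0.072), rose by 0.93 ± 0.23 against 3aKO (adjusted p = 0.0021) and had -0.29 ± 0.23 in 3bKI against wt (adjusted p = 0.41). Another, dim set had changes of 0.03 and -0.12.

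Tsc22d3 encodes GILZ, a leucine zipper protein that carries part of the anti-inflammatory action of glucocorticoids. Its wt values ran from 10.44 to 11.33 (median 10.77), with 10.14 to 11.54 in 3aKO (median 10.64) and 10.19 to 11.35 in 1KI (median 11.00), and these groups overlapped throughout. The change in 1KI against wt was 0.06 ± 0.15 (adjusted p = 0.82, interval -0.25 to 0.36). The 3bKI arrays read 10.12, 9.92, 9.31, 9.72 and 9.74, all below the lowest wt array at 10.37. Groups that do not overlap occurred for 7.18% of all genes in 3bKI against wt (4.47% with 3bKI lower). Tsc22d3 fell there by 0.98 ± 0.16 (adjusted p = 3.3e-05), a level 1.97-fold lower, and by 0.90 ± 0.17 against 3aKO (adjusted p = 0.00011). With a block on the hybridization control level the change against wt was -0.94 ± 0.26 (adjusted p = 0.024) and the call against 3aKO was lost (-0.86 ± 0.30, adjusted p = 0.081). With RNA integrity as a covariate the call against 3aKO was lost as well (-1.38, adjusted p = 0.091). The wt replicates 1 and 2, at 10.64 and 10.77, lay above all 5 3bKI arrays. The second probe set fell by 0.57 ± 0.18 (adjusted p = 0.014), and the other pair had -0.26 and -0.07.

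Sgk1, a kinase that regulates ion channels and transporters and is induced by glucocorticoids and mineralocorticoids, passed in 1 of the 5 comparisons. It ran from 9.44 to 10.40 in wt (median 9.78), from 9.26 to 10.27 in 3aKO (median 9.95) and from 8.91 to 10.21 in 1KI (median 9.69). Its 3bKI values were 9.55, 8.96, 9.70, 9.79 and 9.28, overlapping wt. The change was -0.26 ± 0.14 in 1KI against wt (adjusted p = 0.15) and -0.38 ± 0.16 in 3bKI against wt (adjusted p = 0.068), and only against 3aKO did it pass in 3bKI (-0.44 ± 0.16, adjusted p = 0.036). That call was lost without any 1 of 3aKO replicates 1, 5 and 6 or 3bKI replicates 2 and 5, with changes of -0.40, -0.40, -0.40, -0.31 and -0.39. In 3bKI against wt the change passed without wt replicate 1 (-0.42), wt replicate 2 (-0.42) or 3bKI replicate 4 (-0.47), and in 1KI against 3aKO, at -0.32 (adjusted p = 0.081), it passed without 3aKO replicate 8 (-0.40) or 1KI replicate 9 (-0.39). The wt arrays at the higher control level were the lowest of wt, at 9.44 and 9.50, and with that level as a block the change was 0.14 ± 0.24 in 1KI against wt (adjusted p = 0.8), 0.02 ± 0.23 in 3bKI against wt (adjusted p = 0.98) and 0.04 ± 0.26 in 3bKI against 3aKO (adjusted p = 0.96). These block fits rest on wt replicates 1 and 2 as the controls at that level, and 3aKO replicate 8, at the lower level, read 9.26. A relation of Sgk1 to the control level was not tested.

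Arrdc2 encodes an alpha arrestin, a family of adaptors for the ubiquitin-dependent sorting of membrane proteins. It was listed because its rise in 1KI was already known, so its 1KI values are a description. They ran from 7.54 to 9.28 (median 8.37, n = 10), against 6.12 to 7.59 in wt (median 6.85) and 6.51 to 7.75 in 3aKO (median 6.91), and all but replicate 1 lay above every wt array. The log2 change was 1.67 ± 0.19 against wt, a level 3.18-fold higher, and 1.48 ± 0.20 against 3aKO. The wt arrays at the higher control level read 6.79 and 6.90, below all 1KI arrays, and with the level as a block the change against wt was 1.60 ± 0.34. Under that block the call in 1KI against 3aKO was lost, where 0 of the 8 genes passed, beside 2.29% of all genes. On the 3bKI arrays Arrdc2 read 7.80, 6.89, 6.44, 7.48 and 7.78, with 2 arrays inside and 3 at or above the top of the wt range of 6.06 to 7.48. It rose by 0.62 ± 0.21 in 3bKI against wt (adjusted p = 0.026), and the call was lost without replicate 1 (0.49), 4 (0.57) or 5 (0.49). The call in 3bKI against wt was lost too with the level as a block. With RNA integrity as a covariate the change there was 0.16 ± 0.41 (adjusted p = 0.9). Against 3aKO the change in 3bKI was 0.44 ± 0.22 (adjusted p = 0.12), and it passed without 3aKO replicate 6 (0.53) or 3bKI replicate 3 (0.65).

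**Figure D4:**
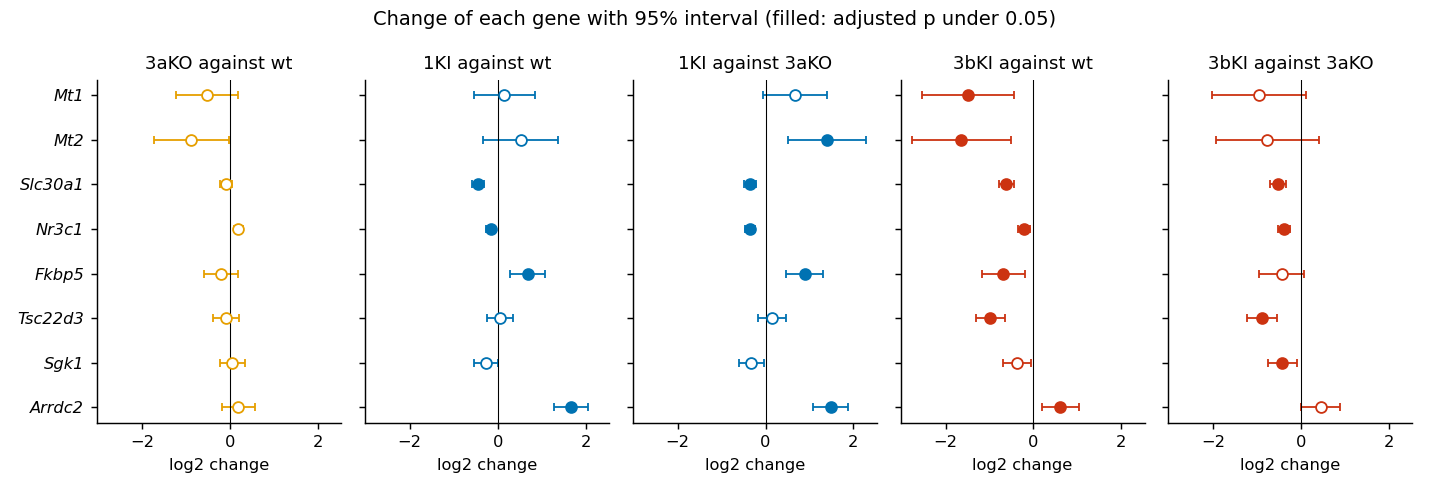
Log2 change of each gene's main probe set (x axis) with its 95% interval in the 5 comparisons (panels), ordered from the metal genes at the top through the receptor to its targets. Filled points passed an adjusted p of 0.05. Filled points are absent in 3aKO against wt, and in 3bKI against wt 6 of 7 lie left of 0.

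The genes did not vary as 1 block within genotypes. Over the 32 arrays of the first normalization, after subtracting genotype means, Fkbp5 had r = 0.59 with both Mt1 and Mt2 and 0.41 with Tsc22d3, while Slc30a1 had -0.04 with Mt1, 0.08 with Mt2 and -0.37 with Tsc22d3. Nr3c1 and Tsc22d3 had r = -0.49. These values are descriptions over arrays whose hybridization control level and RNA integrity also vary. The pair of Mt1 and Fkbp5 was examined after these values were seen and correlated with r = 0.63 in wt (n = 12), 0.69 in 3aKO (n = 10) and 0.55 in 1KI (n = 10), with permutation p values adjusted over 6 relations of 0.037, 0.037 and 0.15 and rho of 0.48, 0.62 and 0.26 (adjusted permutation p = 0.14, 0.09 and 0.47). Without the 2 arrays farthest from the Mt1 median r was 0.55, 0.46 and -0.44 (unadjusted permutation p = 0.1, 0.25 and 0.3, over 10, 8 and 8 arrays), so that it kept its sign in wt and 3aKO and turned negative in 1KI.

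Among genes above the median signal, the pattern most like that of Mt1 over the same 32 arrays was that of Mt2 (r = 0.91), followed by Plce1 (0.68) and Slc16a7 (0.62). For Mt2 Itga6 and Sowahc came next (both 0.66), and for Slc30a1 Eva1a (0.72), Gps1 and 2310033P09Rik (both 0.62). Fkbp5 was closest to St3gal5 (0.83), Fgf1 (0.81) and Epas1, Tsc22d3 to Actr6 (0.85), Ces1d and Herpud1, and Sgk1 to Trim35 (0.81), Plpp1 and Plxnc1. Nr3c1 was closest to Sepsecs, Plxna2 and Bclaf1, and Arrdc2 to Mpzl2, Tpst2 and Irf2.

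Other genes known to respond to glucocorticoids were called higher more often than lower in 1KI. Of 29 measured, 17 rose, 1 fell and 11 did not pass against wt. That is 62.1% called with a median log2 change of 0.45, beside 27.6% and -0.05 for all genes. Against 3aKO 15 rose and 2 fell (58.6% called, beside 31% of all genes). Mfsd2a, a lipid transporter induced by fasting, rose by 1.17 ± 0.21 against wt (adjusted p = 5.6e-05). Cebpb, a liver transcription factor, rose by 0.64 ± 0.11 (adjusted p = 5.8e-05), and Zfp36, which encodes the mRNA-destabilizing protein tristetraprolin, by 0.59 ± 0.11 (adjusted p = 8.8e-05). Against 3aKO the smallest p values were those of Ddit4 (0.85), Angptl4 (0.71) and Zfp36 (0.55). Lcn2, Cdkn1a, Cebpd and Igfbp1 were on the list with their changes in these data already known. Without these 4 genes, 14 of 25 rose and 1 fell in 1KI against wt (60% called, median 0.45). Against 3aKO 11 of the 25 rose and 2 fell (52% called, beside 31% of all genes). Without wt replicates 1 and 2 and 1KI replicate 6 together 17 rose and 0 fell against wt (58.6% called, beside 27% of all genes). With a block on the hybridization control level 6 rose and 0 fell (20.7% called, beside 4.3% of all genes) with a median of 0.45. Against 3aKO 1 rose under that block (3.45% called, beside 2.29% of all genes).

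In 3bKI the same list was split. Against wt 6 rose, 5 fell and 18 did not pass (37.9% called, beside 29.2% of all genes, median 0.01). Against 3aKO 7 rose and 8 fell (51.7% called, beside 34.2% of all genes). Without Lcn2, Cdkn1a, Cebpd and Igfbp1, 4 of 25 rose and 5 fell against wt (36% called). Against 3aKO 5 of the 25 rose and 8 fell (52% called). Nfkbia, the NF-kappaB inhibitor gene, fell by 0.46 ± 0.08 against wt (adjusted p = 3.1e-05). Pck1, the gluconeogenic enzyme gene, fell by 0.45 ± 0.09 (adjusted p = 0.00023). Cdkn1a, a cell cycle inhibitor gene, rose by 1.06 ± 0.24 (adjusted p = 0.0011). It was listed with its change in these data already known, so its rise is a description. Against 3aKO the smallest p values were those of Nfkbia (-0.44), Pck1 (-0.50) and Pik3r1 (-0.65). With the level as a block 3 rose and 2 fell against wt (17.2% called, beside 8.7% of all genes). With RNA integrity as a covariate 0 rose and 2 fell (6.9% called, beside 3.33% of all genes). The liver enzyme gene Tat, a classical glucocorticoid target named here after its values were seen, had changes of 0.03 ± 0.09 in 1KI and -0.03 ± 0.08 in 3bKI against wt.

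**Figure D5:**
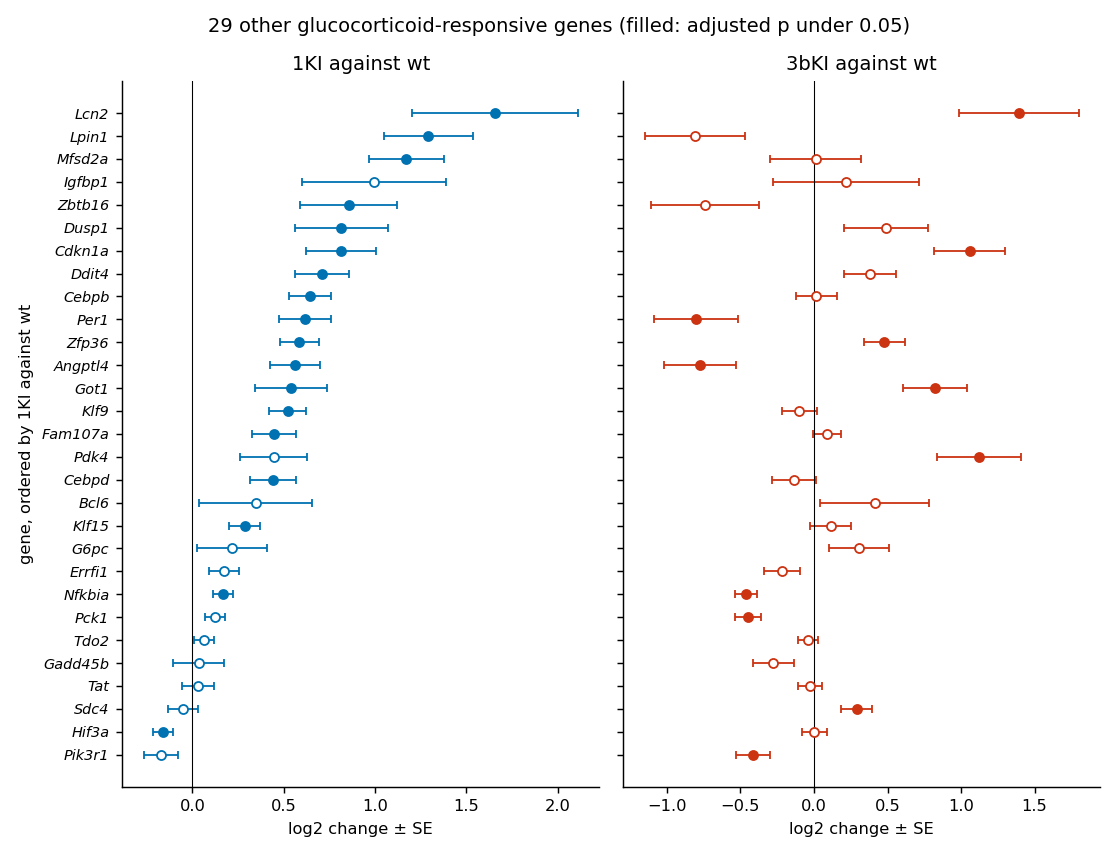
Log2 change (x axis) with its SE for the 29 other glucocorticoid-responsive genes (y axis, ordered by their change in 1KI against wt) in 1KI against wt (left) and 3bKI against wt (right). Filled points passed an adjusted p of 0.05. On the left 17 filled points lie right of 0 and 1 left of it, and on the right 6 and 5.

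Of 15 measured genes of the receptor's machinery (chaperones, coregulators, carriers and hormone-metabolizing enzymes), 2 rose and 5 fell in 1KI against wt (46.7% called, beside 27.6% of all genes) and 1 rose and 7 fell in 3bKI against wt (53.3% called, beside 29.2%, median -0.29). Nr3c2, which encodes the related mineralocorticoid receptor, fell by 0.59 ± 0.12 in 1KI against wt (adjusted p = 0.00051) and, named there after its value was seen, by 0.59 ± 0.17 in 3bKI against wt (adjusted p = 0.0068). Ncoa2, a receptor coactivator, fell by 0.72 ± 0.08 in 3bKI (adjusted p = 1.1e-07), Serpina6, the corticosteroid carrier of plasma, by 0.71 ± 0.09 (adjusted p = 1e-06), and Stub1, a chaperone-linked ubiquitin ligase, rose by 0.49 ± 0.06 (adjusted p = 4.3e-07). In 1KI against wt Stub1 rose by 0.25 ± 0.06 (adjusted p = 0.001) and Akr1d1, a steroid reductase, fell by 0.60 ± 0.18 (adjusted p = 0.0098). With the level as a block 0 of 15 passed in 1KI against wt, beside 4.3% of all genes, and 3 of 15 in 3bKI against wt, beside 8.7%.

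Among 27 further genes of zinc and copper handling, 3 rose and 4 fell in 1KI against wt (25.9% called, beside 27.6% of all genes) and 8 rose and 7 fell in 3bKI against wt (55.6% called, beside 29.2%). The zinc importers Slc39a1 and Slc39a14 rose by 0.38 ± 0.07 (adjusted p = 5.4e-05) and 0.35 ± 0.07 (adjusted p = 0.0003) in 1KI against wt, and the copper importer Slc31a1 fell by 0.71 ± 0.15 (adjusted p = 0.00073). In 3bKI against wt Slc30a10, a manganese exporter in liver, rose by 1.43 ± 0.16 (adjusted p = 1e-07), Slc30a9 fell by 0.67 ± 0.07 (adjusted p = 9.5e-09) and Slc30a4 by 0.39 ± 0.07 (adjusted p = 4.3e-05). Slc39a14, named in 3bKI after its value was seen, fell by 0.47 ± 0.09 there (adjusted p = 0.00013). Mtf1, the metal sensor, had changes of 0.13 ± 0.08 in 1KI and -0.14 ± 0.09 in 3bKI (adjusted p = 0.23 and 0.28). With the level as a block 1 of 27 passed in 1KI against wt (3.7%, beside 4.3% of all genes) and 4 of 27 in 3bKI against wt (14.8%, beside 8.7%).

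In 3aKO against wt 0 genes of these lists passed (limma), with medians between -0.01 and 0.05. At an unadjusted p under 0.05 there were 5 of the 29 glucocorticoid-responsive genes, 2 of the 15 of the receptor's machinery and 3 of the 27 of metal handling. The share of all genes at that p is not given here. These counts, like that for the 8 genes, therefore cannot be read as above or below the background. Of 16 measured relatives of the 8 genes, 1 rose and 5 fell in 1KI against wt (37.5% called, beside 27.6% of all genes) and 5 rose and 3 fell in 3bKI against wt (50% called, beside 29.2%). Fkbp8 rose by 0.36 ± 0.08 in 1KI (adjusted p = 0.00051) while Fkbp1a fell by 0.18 ± 0.04 (adjusted p = 0.002), and in 3bKI Fkbp1a fell by 0.45 ± 0.07 (adjusted p = 4e-06) and Tsc22d2, a relative of Tsc22d3, by 0.73 ± 0.11 (adjusted p = 4.4e-06).

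Markers of other liver cells were counted beside the 8 genes, and their part in the results was not tested. The shares to read these counts against are the 27.6% of all genes called in 1KI against wt and the 29.2% in 3bKI against wt. In 1KI against wt 0 of 8 Kupffer cell markers (limma, 3 at an unadjusted p under 0.05), 3 of 8 endothelial markers (1 higher, 2 lower) and 1 of 8 stellate markers (lower) passed, and in 3bKI against wt 1 of 8 (higher), 1 of 8 (higher) and 4 of 8 (1 higher, 3 lower). Against 3aKO, where Mt2 rose in 1KI, 4 of 8 Kupffer cell markers fell in 1KI, beside 19% of all genes, and 1 of 8 in 3bKI, beside 17.7%. The mean of the Kupffer cell list per array ran from 8.92 to 9.35 in wt, 9.04 to 9.98 in 3aKO and 8.49 to 10.03 in 1KI, and from 8.69 to 9.58 in 3bKI. Of 3 erythroid markers 1 rose in 3bKI against wt. Lymphocyte markers passed against wt in 0 of 6 in 1KI (1 at an unadjusted p under 0.05) and 1 of 6 in 3bKI, and cholangiocyte markers in 1 of 4 in each. In whole liver, fewer cells of a type and less RNA per cell cannot be told apart.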

How the data were processed

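Liver RNA was read as biotinylated cRNA on Affymetrix arrays, per the labels' protocols. The deposited values are on a log2 scale, read from their range of 2.13 to 15.06, and were normalized by the authors in 2 sets of arrays, by a method that the labels and headers do not name. The 59 deposited columns hold 37 arrays. Depth has no counterpart here, and the number of arrays limits the precision.

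Of 45101 probe sets 34945 carried 1 symbol, 932 several, 9160 none and 64 were controls, and 34741 matched RefSeq by Entrez ID. Each of 18193 genes was read from its probe set with the highest mean. Linear models (R 4.3.3, limma 3.58.1, with eBayes run without a trend and groups taken from the labels' titles) were fitted over all arrays of a normalization, with Benjamini-Hochberg adjustment over all genes at 0.05. Probe sets other than the main ones were tested among all probe sets. No filter on signal was applied. Correlations used 2-sided tests with 100000 permutations (scipy 1.17.1). The models were tested on simulated data. The higher hybridization control level means a mean of those controls at or above the lowest value among knock-in arrays of that normalization.

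All 8 genes were named. Other genes were the 3 called with the smallest p per list and comparison, or the 3 most alike in values minus genotype means, and exceptions are stated. The genes and lists were chosen with earlier results of these data known. Alternatives were a fit on the compared groups, a variance trend, the mean of probe sets, all probe sets, genes above the median signal, quantile and median scaling, array weights, control level, sex index and RNA integrity as terms, a block on replicate number, and arrays left out.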

Additional observations from a re-analysis of the deposited data

Results flagged for a closer look

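Of 24 groups of 5 to 10 arrays that were checked over the 8 genes, 2 held an array farther from its neighbours than Dixon's 95% limit allows, and chance marks about 1 in 20. Slc30a1 stood highest on 3aKO replicate 10, at 10.55 with the next array at 10.32, and Sgk1 stood lowest on 3aKO replicate 8, at 9.26 with the next at 9.74. Without 3aKO replicate 8 the change of Sgk1 in 1KI against 3aKO was -0.40 (limma, adjusted p = 0.025), beside -0.32 (adjusted p = 0.081) with it.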

How the results depend on the processing

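For the 8 genes in 5 comparisons, 1350 alternative values were computed, of which 1256 kept their direction and their side of the threshold, 65 lost the call, 17 gained it and 12 changed sign. With a block on hybridization control level, alone or with a sex index, 2 genes passed against wt in 1KI and 2 in 3bKI, and against 3aKO 0 passed in 1KI (limma) and 1 in 3bKI. Every 1KI and 3bKI array stands at the higher level, where wt replicates 1 and 2 are the only controls. Their poly-A controls, at 9.695 and 9.572, did not match those of 3bKI, at 13.772 to 13.85. The 3' minus 5' difference of 3bKI, 0.275 to 0.36, lay below every wt (0.475 to 0.65) and 3aKO array (0.545 to 0.755). Neither the block nor the RNA integrity covariate can therefore separate the 3bKI genotype from these array differences. With RNA integrity as a covariate 2 passed in 3bKI against wt and 0 against 3aKO, and with array weights 1 passed in 3aKO against wt. Leaving out 1 array gave 3 to 8 genes in 3bKI against wt, beside 26.7% to 29.6% of all genes. There were 4 without 3bKI replicate 3 and 3 without replicate 5. In 1KI against wt there were 4 in each case, beside 24.9% to 28.3% of all genes. Same-numbered arrays deviated together above r = 0.1 in 6 of 10 pairs of 3aKO and wt. With 1KI the counts were 4 of 10 (wt) and 7 of 10 (3aKO), and with 3bKI 2 of 5 and 1 of 5. The median r was 0.168 in 3aKO against wt, beside -0.023 for other numbers. For 1KI it was 0.058 with wt (beside -0.004) and 0.241 with 3aKO (beside -0.019). For 3bKI it was 0.009 with wt (beside 0.028) and -0.195 with 3aKO (beside -0.009). In 1KI against 3aKO 5 arrays were closest to their own number. Whether the numbers pair the samples is therefore not settled. With a replicate block 2 genes passed against wt in 3bKI (beside 10.8% of all genes), 3 in 1KI (beside 19.2%) and 0 in 3aKO (beside 0.077%). Against 3aKO 5 passed in 1KI (beside 28.7%) and 4 in 3bKI (beside 22.1%). Over all genes, the count called in 3aKO against wt was 32, with 307 under array weights, 15 under the level block (17 with the sex index), 48 with RNA integrity, 14 with the replicate block, 15 without wt replicates 1 and 2 and 16 to 56 without 1 array. Against wt, 5026 genes called in 1KI became 782 (672 with the sex index) under the level block, and 5318 in 3bKI became 1583 (1482), 605 with RNA integrity and 1964 with the replicate block. Against 3aKO, 5636 in 1KI became 417 (391), and 6218 in 3bKI became 1232 (1264), 116 with RNA integrity and 4021 with the replicate block. Testing all probe sets, a larger number, gave 129 in 3aKO against wt, 13132 and 14099 in 1KI (wt, then 3aKO) and 14151 in 3bKI against 3aKO, and in 3bKI against wt the 27.7% given above. Sgk1 changed sign with the control level as a block, to 0.135 against wt and 0.154 against 3aKO in 1KI, to 0.016 and 0.042 in 3bKI, and to -0.019 in 3aKO against wt. With the block and a sex index it had 0.056 and 0.079 in 1KI and -0.024 in 3aKO. Without wt replicates 1 and 2 its change in 3aKO was -0.019, and it was the same with 1KI replicate 6 left out as well, a setting added after seeing the data. Arrdc2 changed sign to -0.145 in 3bKI against 3aKO with RNA integrity. Mt1 in 1KI against wt ran from -0.017 to 0.359 when 1 array was left out, the lowest without 1KI replicate 3. The causes were not tested. The correlation of Mt1 and Mt2 stayed between 0.75 and 0.97 in all its alternatives. Equal array medians ended the call of Nr3c1 in 1KI against wt (3 genes called, beside 23.6% of all genes). A further quantile normalization ended that of Sgk1 in 3bKI against 3aKO (3 called, beside 33.7%). Equal medians and testing genes above the median signal alone brought Sgk1 in 3bKI against wt past the threshold.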
